A study of Mus musculus with 2 samples.

Results

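The 5S and 5.8S ribosomal RNA (rRNA) genes were described copy by copy in nuclei isolated from the mouse myoblast line C2C12. The members were chosen by name and by measured value: each is a gene that the files call 5S_rRNA, 5_8S_rRNA or n-R5s with a number, and each had at least 1 unique molecular identifier (UMI, a tag that marks 1 captured molecule) in the genome-aligned counts of either library. This gave 91 genes of 55414 in the files, made up of 89 5S genes of 341 listed and both 5.8S genes listed. The threshold left 252 5S genes outside at 0 UMIs, and 19 5S genes stood just inside it at 1 UMI.

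The study prepared 2 single-nucleus libraries on the Chromium v3 droplet platform, 1 from nuclei treated in situ with yeast poly(A) polymerase (the in situ polyadenylated library) and 1 from untreated nuclei (the standard library). Poly(A) polymerase adds adenines to free RNA 3′ ends, and the platform primes cDNA on adenine runs. Per the study's methods the standard nuclei were also given neither the warm incubation of the enzyme step nor the wash after it. Enzyme, incubation and wash therefore cannot be told apart. The nuclei were handled with the RNase inhibitor SUPERase-In. In its spatial protocol the paper found that this inhibitor did not keep longer transcripts from degrading in the enzyme step. Its part in the counts below was not tested. Both libraries came from 1 cell line, were methanol-fixed and have no replicate, so the comparisons below are between 2 libraries, no test was made, and all intervals are 95% intervals that cover counting error only.

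The large ribosomal subunit holds 5S, 5.8S and 28S rRNA, and the small subunit holds 18S rRNA. RNA polymerase I transcribes 18S, 5.8S and 28S as a single long precursor in the nucleolus, and 5.8S is cut out of it by removal of the spacers on either side. RNA polymerase III transcribes 5S from separate tandem genes, guided by transcription factor IIIA on a promoter inside the gene, and stops at a run of T. 5S then joins the ribosomal proteins Rpl5 and Rpl11 before it enters the large subunit. Neither RNA carries a poly(A) tail in its mature form. Mammalian genomes also hold many scattered, diverged copies of 5S, most of them taken to be pseudogenes, while the long rDNA repeats that encode 5.8S are largely missing from assemblies.

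Most genes of the tandem 5S cluster on chromosome 8 share a single sequence of 119 bases, taken here as the reference, and the leading copies described here were compared with it. Among the 4 cluster copies that had STAR UMIs, n-R5s136 was 99.2% identical to the reference, n-R5s115 (chr8:124291025-124291143) 98.3%, n-R5s109 97.5% and n-R5s127 (chr8:124311274-124311392) 93.3%, all on the minus strand. Outside the cluster, the copies that led the STAR counts on chromosomes 11 and X were n-R5s71 (chr11:74210618-74210736), with 6 mismatches, and n-R5s2, with 4, and the copy that led the kallisto counts was n-R5s28 on chromosome 17, with 6. These 3 lie on the plus strand in intergenic sequence, in GRCm39.

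The 5.8S copy ENSMUSG00002075637 is printed to show how far the listed 5.8S copies differ from each other. It lies at chr6:94803762-94803904 of GRCm39 on the minus strand, in intergenic sequence, and is 143 bases long. Capitals mark the bases that an alignment to the other 5.8S copy left unmatched.
ENSMUSG00002075637: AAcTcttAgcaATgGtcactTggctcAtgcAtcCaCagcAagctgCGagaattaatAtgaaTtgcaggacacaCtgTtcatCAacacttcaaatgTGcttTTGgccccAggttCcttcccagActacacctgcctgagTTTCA
The aligned pair was 72.2% identical, with 31 mismatches and 11 gap positions, and its longest shared exact run was 15 bases. A search of the genome with either sequence returned 2 loci of at least 50 bases, which were these same copies.

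The authors quantified reads by 2 routes. In the first, reads were aligned to the genome with STAR and UMIs were counted per gene, and the deposited STAR matrices hold 3791 barcodes with 20244284 UMIs for the in situ polyadenylated library and 8474 barcodes with 20355795 UMIs for the standard library. In the second, reads were matched to transcripts with kallisto, and those matrices hold 6761140 and 10593453 UMIs over every barcode. Nuclei were retained with over 750 kallisto UMIs and under 5% mitochondrial UMIs, which left 1335 and 1123 nuclei with medians of 1088 and 996 kallisto UMIs. Of these, 1328 and 1123 are in the STAR matrices, with medians of 6787.5 and 4478 STAR UMIs. The libraries shared 13 STAR barcodes and no retained nucleus (0). Of 7 myoblast markers, 6 had at least 20 kallisto UMIs over both libraries, led by the muscle intermediate filament gene Des with 360 and 636 UMIs, while Myf5 had 6 and 9 UMIs. The 6 markers of blood, endothelial and epithelial cells summed to 18 and 48 kallisto UMIs. Among them the endothelial adhesion gene Pecam1 had 10 and 35 by kallisto. The macrophage marker Adgre1, the endothelial cadherin gene Cdh5 and the epithelial marker Epcam had 0 kallisto UMIs in both libraries. By STAR all 6 were measured at a minimum of 1 UMI and summed to 119 and 97, against 2781 and 6534 for the 7 myoblast markers.

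Both rRNA classes were higher in the in situ polyadenylated library by STAR. In retained nuclei, 5.8S had 140927 in situ polyadenylated and 420 standard UMIs, or 1.22% (exact binomial interval 1.21 to 1.23) and 0.00673% (0.0061 to 0.00741) of all STAR UMIs. The log2 ratio of these shares was 7.50 (exact Poisson interval 7.36 to 7.64), a 181-fold difference. 5S had 4655 and 5 UMIs in the same nuclei, or 0.0403% (0.0392 to 0.0415) and 8.02e-05% (2.60e-05 to 0.000187). The log2 ratio was 8.97 (7.75 to 10.60), or 503-fold. The 5 standard 5S UMIs set the width of the 5S interval, and 5.8S held more UMIs than 5S in both libraries. STAR UMIs also chose the members, so these ratios describe them and are no test.

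Over all deposited STAR barcodes the 5.8S counts were 256031 and 1470 UMIs, a log2 ratio of 7.45 (7.38 to 7.53), and the 5S counts were 8786 and 20 UMIs, a log2 ratio of 8.79 (8.16 to 9.50). These shares are parts of a fixed total. On the same STAR scale the median among protein-coding genes that reached 50 UMIs in both libraries had a log2 ratio of -1.92, and relative to that median the ratios in retained nuclei were 9.42 for 5.8S and 10.90 for 5S.

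The kallisto counts of the same nuclei gave another picture for 5.8S. kallisto counted 0 5.8S UMIs in retained nuclei of either library, with exact upper limits of 0.000187% in the in situ polyadenylated and 0.000267% in the standard library. 5S had 194 kallisto UMIs in retained in situ polyadenylated nuclei and 0 in standard nuclei, so its share was at least 45.3-fold higher (log2 at least 5.50) against a floor of 3 UMIs for the library at 0. These kallisto UMIs lay in 56 nuclei, and 8 of them held 47.1%. Over every kallisto barcode, 5S had 676 and 8 UMIs, a log2 ratio of 7.05 (6.06 to 8.27), and 5.8S had 8 and 0. Over all 341 listed 5S copies, which include those that STAR did not count, the kallisto sums were 818 and 35 UMIs, a log2 ratio of 5.19 (4.71 to 5.73), so choosing members by STAR left out most of the standard UMIs. The direction was the same by both routes for 5S. For 5.8S the difference between libraries in retained nuclei rests on STAR alone.

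**Figure D1:**
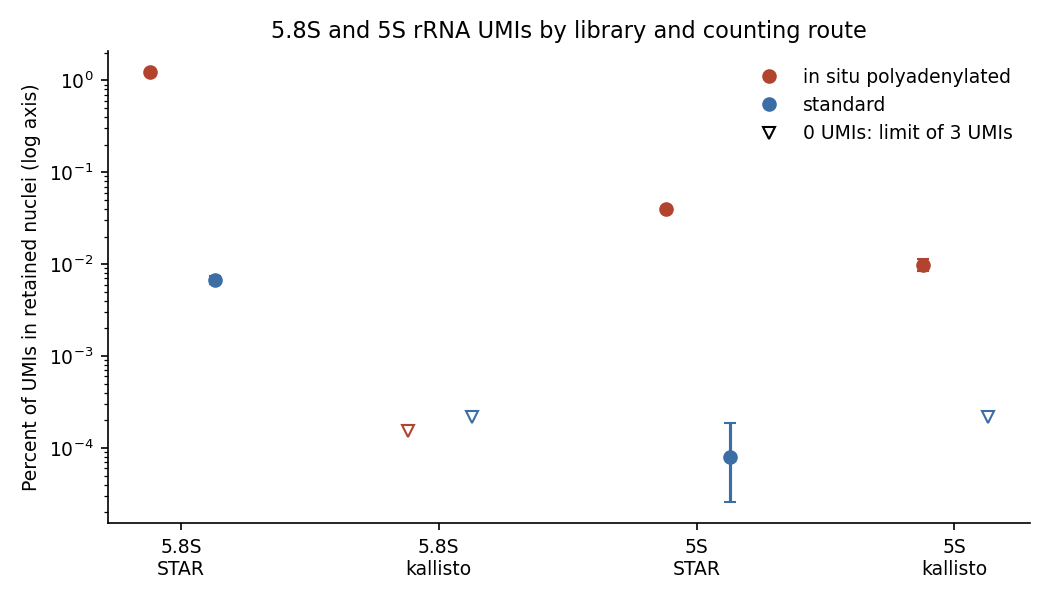
Share of all UMIs in retained nuclei (log axis, percent) held by 5.8S and 5S genes in the in situ polyadenylated and standard libraries, by STAR and by kallisto. Points are shares with exact 95% binomial intervals, and open triangles mark the limit that 3 UMIs set where the count is 0. By STAR the in situ polyadenylated shares were 1.22% and 0.0403% and stood above the standard shares.

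Of the 55414 genes, 13858 had at least 20 STAR UMIs over both libraries in retained nuclei, and 4.39% of these were at least 2-fold higher in the in situ polyadenylated library. Both 5.8S genes and 21 5S genes reached 20 UMIs, and all 23 were at least 2-fold higher. Each 5S gene passed that minimum through the in situ polyadenylated library, where its class is high, so this count describes the members and supports nothing further. By kallisto 1.46% of 8430 genes were at least 2-fold higher and 75.7% at least 2-fold lower. The 3 5S genes with at least 20 kallisto UMIs were higher, and no 5.8S gene was measured (0).

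The 5.8S counts came almost wholly from 1 copy. ENSMUSG00002075795, 148 bases long, lies on chromosome 18 in an intron of the long noncoding RNA gene Gm32022, on the same strand. It held 245768 in situ polyadenylated and 1403 standard STAR UMIs, a log2 ratio of 7.46 (7.38 to 7.54). In retained nuclei it held 135143 and 398 UMIs, a log2 ratio of 7.52 (7.38 to 7.66). The other copy, ENSMUSG00002075637, held 10263 and 67 UMIs, a log2 ratio of 7.27 (6.92 to 7.64), and in retained nuclei 5784 and 22 UMIs (7.15, 6.55 to 7.83). Both copies were higher in the in situ polyadenylated library and their intervals overlapped.

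The split between the 5.8S copies was close in both libraries. ENSMUSG00002075795 held 96.0% (95.9 to 96.1) of the in situ polyadenylated UMIs of the class and 95.4% (94.2 to 96.5) of the standard ones over all STAR barcodes. In retained nuclei the shares were 95.9% (95.8 to 96.0) and 94.8% (92.2 to 96.7). Gene counts cannot tell reads of these copies apart from reads of 5.8S in rDNA that the assembly does not hold.

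The 5S counts were spread over many more copies, yet a few led. Of the 89 members, 86 had in situ polyadenylated UMIs and 14 had standard UMIs, 11 of them in both and 3 in the standard library only. The median member held 6 UMIs in the in situ polyadenylated library, 38 members held at least 10 UMIs over both libraries and 14 held at least 100. The 3 highest held 59.5% and the 6 highest 75.5% of the in situ polyadenylated 5S UMIs. In the standard library no member passed 3 UMIs, the value of ENSMUSG00002075804.

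n-R5s25, the leading 5S copy, lies on chromosome 18 opposite to an intron of Cdc23, which encodes a subunit of the anaphase-promoting complex. It had 3175 in situ polyadenylated and 0 standard STAR UMIs, at least 1064-fold higher by share. The 3175 UMIs were 36.1% (35.1 to 37.2) of the class, and in retained nuclei 1697 and 0 UMIs, or 36.5% (35.1 to 37.9). Cdc23 itself, read on the other strand, had 142 and 696 UMIs, and most genes were likewise lower by STAR.

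n-R5s71 had 1057 and 0 STAR UMIs, at least 354-fold higher by share in the in situ polyadenylated library. n-R5s2 had 997 and 0, at least 334-fold higher. ENSMUSG00002076829 (chr5:119435310-119435426, opposite to an intron of Gm31190) had 698 and 0, at least 234-fold higher. These 3 copies had 0 standard UMIs, so each fold is a bound set by the floor of 3 UMIs.

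ENSMUSG00002075745 (chr4:149902189-149902297, inside an exon of Gm55099 on the same strand) had 371 and 0 STAR UMIs, at least 124-fold higher. n-R5s93 (chr8:5119259-5119377, intergenic and far from the cluster) had 332 and 1, and its log2 ratio of 8.38 carried an interval of 5.89 to 13.69. n-R5s28 had 109 and 1 UMIs, with a log2 ratio of 6.78 (4.27 to 12.09). The single standard UMI of n-R5s93 and of n-R5s28 left wide intervals. In retained in situ polyadenylated nuclei the order of the 6 leading copies was the same, from n-R5s25 with 1697 UMIs through n-R5s71 with 561 and n-R5s2 with 532 to ENSMUSG00002076829 with 353, ENSMUSG00002075745 with 192 and n-R5s93 with 184.

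**Figure D2:**
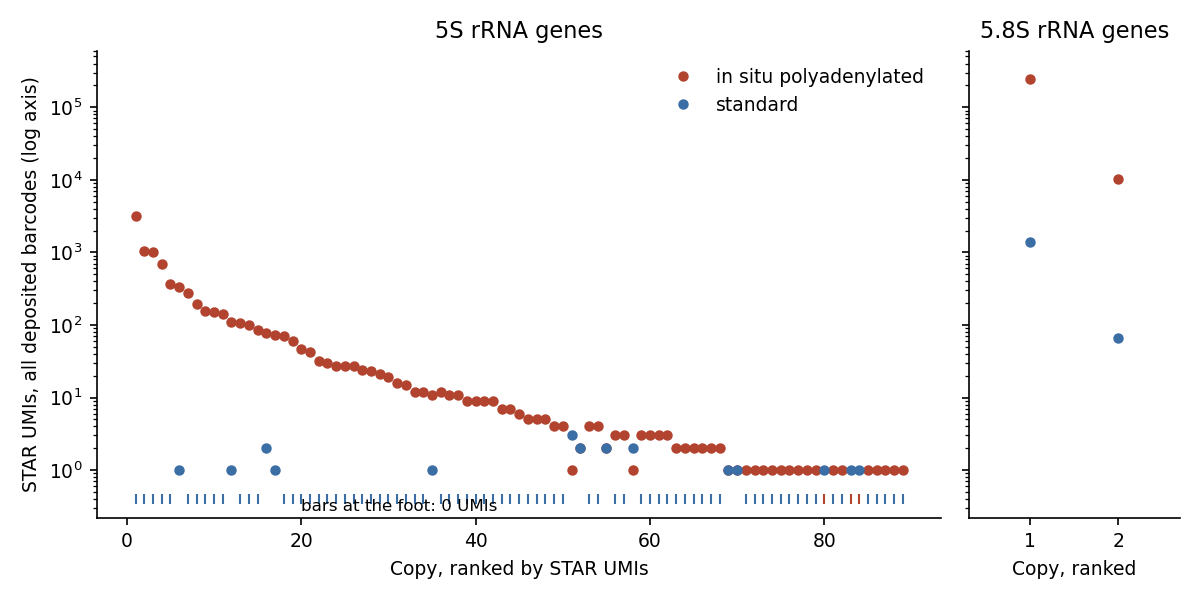
STAR UMIs over all deposited barcodes (log axis) for the 89 5S members and both 5.8S members, ranked by their UMIs over both libraries, with short bars at the foot for 0 UMIs. Points are single libraries. The in situ polyadenylated 5S counts fall from 3175 to 0, the standard ones stay at or below 3, and the 5.8S copies are 176-fold and 154-fold higher by share in the in situ polyadenylated library.

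The named and unnamed 5S genes differed in how often they were counted. Of 73 listed genes with an n-R5s name 29 were members, and these held 6997 in situ polyadenylated UMIs, or 79.6% of the class. Of 268 genes listed only as 5S_rRNA 60 were members, with 1789 UMIs. Of 9 listed copies on chromosome Y, only n-R5s1 (chrY:991630-991748, in an exon of Gm54351 on the same strand) had STAR UMIs, 156 and 0. A set of 4 Y-linked coding genes, Ddx3y among them, had 1 and 7 kallisto UMIs in all in retained nuclei and 64 and 38 by STAR. UMIs were thus assigned to other Y genes, at low levels, in both libraries. Whether these reads or those of n-R5s1 came from chromosome Y was not tested.

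The tandem 5S cluster, from which functional 5S RNA is known to be made, held few counts. It spans chr8:124265525-124348785 on the minus strand, and 41 listed copies stood there with a median spacing of 1703 bases. Of these, 25 had exactly the reference sequence, and none of the 25 had a UMI by STAR or kallisto in any barcode (0 and 0). Rn5s, a listed gene of the same sequence whose name the rule did not cover, also had 0. The 4 members of the cluster, n-R5s115, n-R5s127, n-R5s109 and n-R5s136, held 141, 30, 15 and 6 in situ polyadenylated STAR UMIs and no standard UMI. Together this was 192 UMIs, or 2.19% of the class. The other 12 cluster copies had no STAR UMI.

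Copies that cannot be told from others had no counts. All 46 listed 5S copies that are identical to another listed copy had 0 UMIs by both routes. kallisto indexes transcripts in words of 31 bases, and 54 listed copies had no 31-base word that other annotated transcripts lack. None of these 54 was a member and none had a kallisto UMI (0 and 0). Of the 287 copies with such a word, 89 were members. Neither matrix thus held a count for a copy of the repeated reference sequence.

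**Figure D3:**
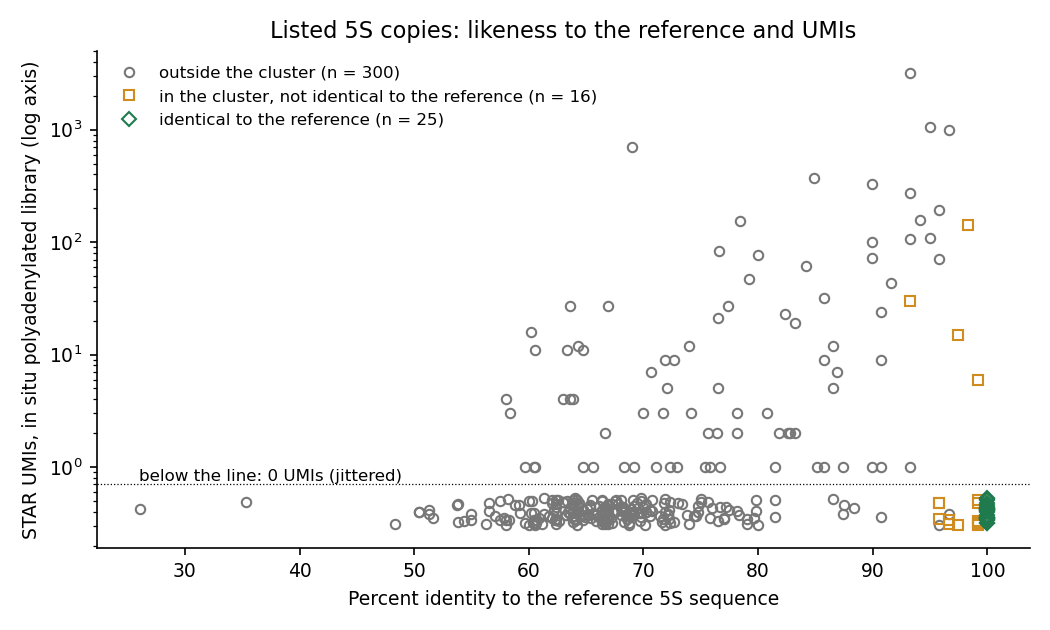
Percent identity of each of the 341 listed 5S copies to the reference 5S sequence (x axis) against its in situ polyadenylated STAR UMIs (log axis), with copies at 0 UMIs jittered below the dotted line. The 25 copies identical to the reference all had 0 UMIs, while copies outside the cluster at 90% identity or more held 6214 UMIs.

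Outside the cluster, counts were more frequent in copies that resemble the reference. Of 32 copies under 60% identity 3 were members, of 149 copies from 60 to 70% 19 were, and of 72 copies from 70 to 80% 26 were. Of 30 copies from 80 to 90% 23 were members (76.7%), and of 17 copies at 90% or more 14 were (82.4%). The members of the last group held 6214 in situ polyadenylated UMIs, with a median of 107.5, against medians of 3 to 7 in the lower groups. The median identity was 78.2% in members and 67.6% in listed copies at 0 UMIs, and the longest exact run shared with the reference had medians of 23 and 14 bases. Across the 89 members, Spearman's rho between identity and in situ polyadenylated STAR UMIs was 0.43, given as a description since copies share sequence and a library. An exception was ENSMUSG00002076829, which is 69.0% identical and had 698 UMIs.

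The bases after the annotated end differed between the leading copies, and the 20 bases that follow 3 of the described copies on their own strand are printed for that reason. Capitals mark the longest run of A or of T.
n-R5s71: TTTTggactgccccccccct
n-R5s115: TTTTggactcccctctgtct
n-R5s2: tAAAAAAAAtattctaaggt
All 41 cluster copies carried TTTT, the letters of a polymerase III stop, in these 20 bases, as did n-R5s71. Among all members 13 of 89 (14.6%) carried it, against 81 of 341 listed copies (23.8%), and these members held 14.9% of the in situ polyadenylated UMIs. The 81 include all 41 cluster copies, of which only 4 were members, and this raises the share of the listed copies. Outside the cluster 9 members and 40 listed copies carried it.

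Copies with an adenine-rich stretch after the end were more common among members. At least 12 A in the 20 bases stood after 32 of 89 members (36.0%), 48 of 341 listed copies (14.1%) and 6.35% of the listed copies at 0 UMIs. These members held 4742 in situ polyadenylated UMIs, 54.0% of the class, but n-R5s25 alone held 3175 of the 4742. n-R5s25 had 17 A of 20 and n-R5s28 had 18. Of the other leading copies n-R5s2 had 11, n-R5s93 had 12, ENSMUSG00002075745 had 7, ENSMUSG00002076829 had 4 and n-R5s71 had 1. Across the 89 members, Spearman's rho between the number of A and in situ polyadenylated UMIs was 0.19 by STAR. By kallisto in retained nuclei it was 0.01. The part of these adenines in the counts was not tested.

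By position, 47 of the 89 members were intergenic and held 37.0% of the in situ polyadenylated 5S UMIs, and 144 of 341 listed copies were intergenic. The 28 members opposite to an intron held 50.2%, with n-R5s25 among them, and 5 opposite to an exon held 3.49%. The 6 members in an intron on the same strand held 3.27% although 95 listed copies lie in such introns, and 3 in an exon on the same strand held 6.01%. Reads of a host gene and of a copy on its strand cannot be separated in gene counts, and leaving out such copies gave a log2 ratio of 8.84 for the 5S sum in retained nuclei.

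The routes differed by copy as well as by class. Over the same retained in situ polyadenylated nuclei, STAR counted 24.0 times as many 5S UMIs as kallisto (4655 against 193.6, the latter being estimated and not whole), while for all genes the factor was 5.86. For Rn18s-rs5, the listed 18S rRNA gene, it was 1.77. n-R5s25 and n-R5s71, with 1697 and 561 STAR UMIs, had 0 kallisto UMIs, and n-R5s2 had 532 against 2.43. The 4 cluster members held 93.2 kallisto UMIs in retained nuclei, or 48.1% of the kallisto 5S sum. Of the 4655 STAR UMIs there, n-R5s115 held 76, n-R5s127 13, n-R5s109 8 and n-R5s136 4. Over all STAR barcodes the 4 copies held 192 UMIs, or 2.19% of the class. Of the members, 48 had 0 kallisto UMIs in every barcode, and 26 listed copies had kallisto UMIs but no STAR UMI.

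n-R5s28 led by kallisto with 71 UMIs in retained in situ polyadenylated nuclei, and n-R5s115 followed with 52.3, n-R5s109 with 27 and n-R5s136 with 13.9. By STAR the same copies had 67, 76, 8 and 4 UMIs there. The kallisto UMIs of n-R5s28 sat in 8 nuclei with 18, 17, 11, 8, 6, 4, 4 and 3 UMIs, and each of these 8 nuclei had exactly 1 STAR UMI of n-R5s28. By STAR the 67 UMIs were spread over 66 nuclei, with at most 2 in any of them. n-R5s115 sat in 15 nuclei by kallisto and 73 by STAR, and n-R5s109 in 4 and 8. The sum of kallisto 5S UMIs was likewise held by few nuclei, the 8 highest of which had 47.1% of it.

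**Figure D4:**
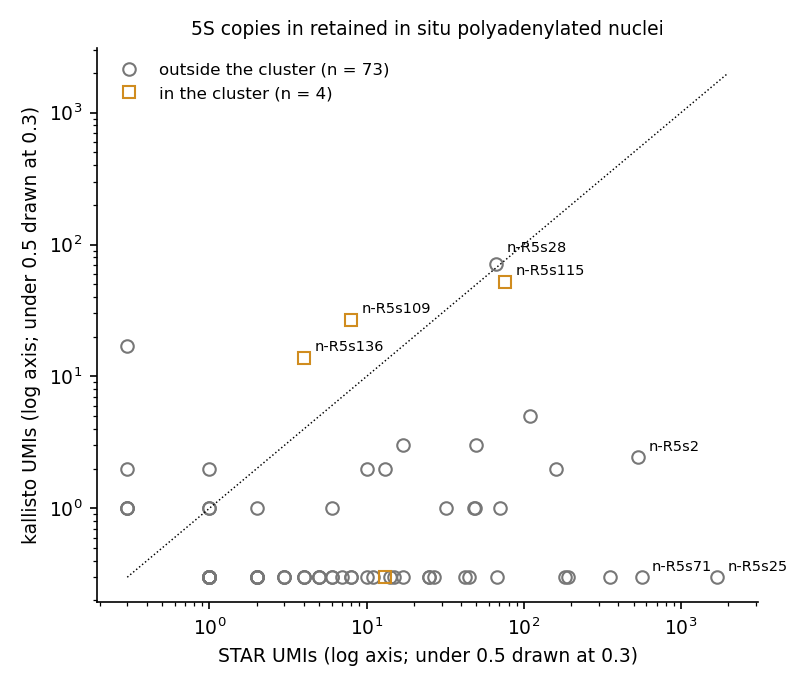
STAR UMIs (x, log axis) against kallisto UMIs (y, log axis) of each 5S copy with UMIs by either route in retained in situ polyadenylated nuclei, 73 copies outside and 4 inside the chromosome 8 cluster. The dotted line marks equal counts, and values under 0.5 are drawn at 0.3. n-R5s28, n-R5s115, n-R5s109 and n-R5s136 lie near or above the line, while n-R5s25 and n-R5s71 have 0 kallisto UMIs.

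Every retained in situ polyadenylated nucleus had STAR UMIs of 5.8S. The 1328 nuclei held at least 5 UMIs each, with a median of 84 (quartiles 57 and 127) and a maximum of 883. In the standard library 328 of 1123 nuclei had a 5.8S UMI, 29.2% (26.6 to 32.0), with a median of 0 and a maximum of 4. Thinned to 1500 STAR UMIs a nucleus, which left out no nucleus (0), the shares were 100% and 10.5% (8.77 to 12.5), and the thinned median was 18 UMIs in the in situ polyadenylated nuclei. The groups of nuclei did not overlap in their 5.8S share: the lowest in situ polyadenylated nucleus had 0.141% of its UMIs in 5.8S and the highest standard nucleus 0.0943%.

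The deposited STAR barcodes that were not retained as nuclei carried these RNAs at a like share, so the counts per nucleus are not shown to come from the nuclei themselves. In the in situ polyadenylated library 2463 such barcodes, with a median of 3395 STAR UMIs, all held 5.8S, at 1.32% (1.32 to 1.33) of their UMIs against 1.22% in retained nuclei. Their 5S share was 0.0475% (0.0461 to 0.0490) against 0.0403%, and 74.5% of them had a 5S UMI. In the standard library 7351 such barcodes, with a median of 1874 UMIs, held 5.8S at 0.00744% (0.00699 to 0.00790) and 15 5S UMIs. Free RNA and unretained nuclei among these barcodes cannot be told apart.

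5S was counted in fewer nuclei. By STAR 1158 of 1328 in situ polyadenylated nuclei had a 5S UMI, 87.2% (85.3 to 88.9), with a median of 3 UMIs and a maximum of 28, and 5 of 1123 standard nuclei did, 0.445% (0.145 to 1.04). Thinned to 1500 UMIs the shares were 42.8% (40.2 to 45.6) and 0.178% (0.0216 to 0.642). By kallisto 56 of 1335 nuclei had a 5S UMI, 4.19% (3.18 to 5.41), and 0 of 1123 standard nuclei, with an interval of 0 to 0.328%. A nucleus with no 5S UMI is not shown to lack 5S, since copies of the reference sequence had no counts.

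**Figure D5:**
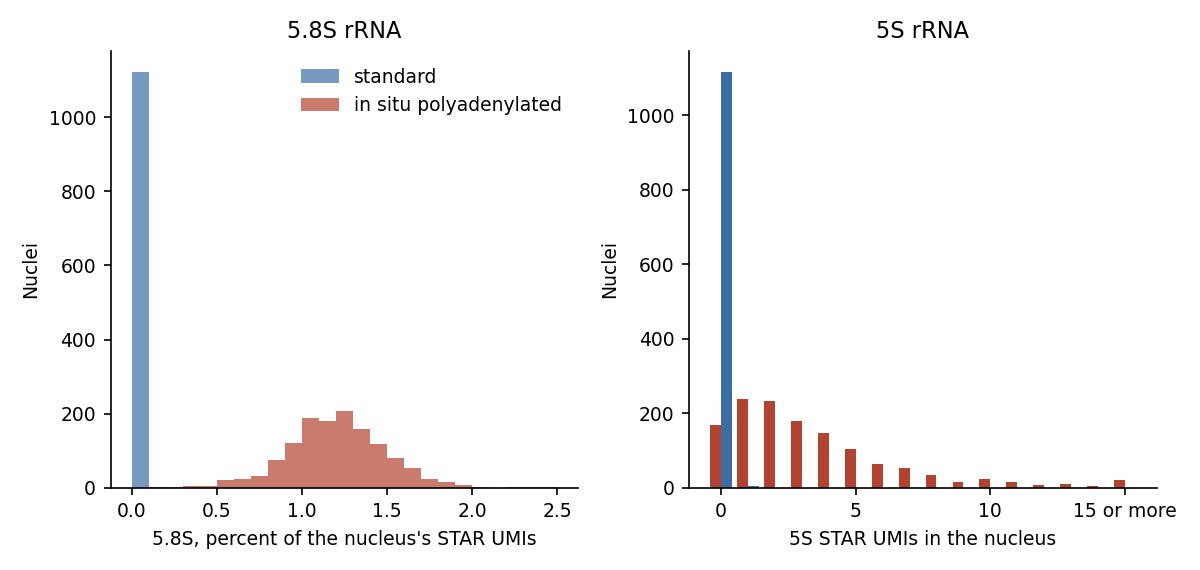
Left, share of each retained nucleus's STAR UMIs in 5.8S (percent, bins of 0.1) and number of nuclei, and right, 5S STAR UMIs per nucleus, for 1328 in situ polyadenylated and 1123 standard nuclei. All standard nuclei fall in the lowest 5.8S bin, whereas the in situ polyadenylated nuclei centre on 1.20%; 1118 standard nuclei have 0 5S UMIs.

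Among in situ polyadenylated nuclei the 5.8S share had a median of 1.20% (quartiles 1.03 and 1.38, range 0.141 to 2.43). Split by depth into 4 sets of 332 nuclei, the pooled share was 1.10, 1.23, 1.25 and 1.23% from the shallowest to the deepest nuclei, and for 5S it was 0.0330, 0.0393, 0.0414 and 0.0419%. Both classes were lowest in the shallowest set, which held nuclei of 2013 to 4909 UMIs. After thinning, the variance of 5.8S STAR counts was 1.92 times their mean and that of 5S STAR counts 1.03 times, where counting error alone gives 1. For 5S by kallisto it was 2.77 times the mean. By STAR 5.8S varied between nuclei beyond counting error, and for 5S little such variation was detectable at this depth.

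In gene pattern, presence of a 5S UMI over retained in situ polyadenylated nuclei was most like that of Zbtb10 (cosine 0.936 over 1328 nuclei), then Lars2, Rreb1, Ica1 and Gm44511 (0.934 each). All 5 were present in 99.2% of nuclei or more, so the measure mostly ranks common genes. For 5.8S, 12 genes tied at a cosine of 1, all present in every nucleus, among them Taco1, Cmss1, Mapk6 and Lrrc15.

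Barcodes with few UMIs, which in droplet data can hold free RNA, also carried 5S. In the in situ polyadenylated library, barcodes of 1 to 100 kallisto UMIs held 324 5S UMIs, or 0.0158% of their UMIs, against 0.00983% in retained nuclei, a log2 ratio of 0.68 (0.42 to 0.95). In barcodes over 100 and up to 500 UMIs the 5S share was 0.00605% and the log2 ratio -0.70 (-1.04 to -0.37), so the direction depended on the range. In retained nuclei the 8 highest held 47.1% of the kallisto 5S UMIs, so both intervals, which take UMIs as independent, are too narrow. The standard library held 3 5S UMIs in its barcodes of 1 to 100 UMIs. 5.8S had 5 kallisto UMIs in these in situ polyadenylated barcodes and 0 in the standard ones.

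The listed rRNA genes differed in how far their counts shifted. The 5S values are UMIs assigned to copies that differ from the reference, since copies of the reference sequence had no UMIs. Gene counts cannot tell whether reads of the reference sequence were assigned to those other copies. Per 100 bases of gene and over all STAR barcodes, the in situ polyadenylated library held 173236 UMIs of 5.8S, 153887 of 18S (Rn18s-rs5) and 7449 of 5S. The standard library held 995, 159760 and 17.6. The ratio of these 5.8S to 18S values per 100 bases was therefore 1.13 in the in situ polyadenylated and 0.00623 in the standard library. Not divided by length, 5.8S held 256031 and 1470 UMIs and 18S 2845373 and 2953969. Whether UMIs scale with gene length was not tested, so 1.13 is not a ratio of molecules. Rn18s-rs5 made up 14.5% and 13.9% of STAR UMIs in retained nuclei (log2 ratio 0.07, and -0.05 over all STAR barcodes), but 48.3% and 29.3% of kallisto UMIs, a log2 ratio of 0.72 (0.71 to 0.72). The mitochondrial rRNA mt-Rnr1 had a kallisto log2 ratio of 1.28 (1.08 to 1.47), with 968 and 280 UMIs, and mt-Rnr2 one of -0.01 (-0.07 to 0.05), with 5747 and 4052. These are ratios of shares, and on the kallisto scale the median protein-coding gene stood at -1.19.

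Genes that make and process these rRNAs were measured by kallisto in retained nuclei, where the median gene had a log2 ratio of -1.41 and 75.7% of genes were at least 2-fold lower. Over the 4 protein lists that follow and the 2 RNA lists, 49 genes were 2-fold lower on this scale and 5 relative to the median protein-coding gene, so the low direction below is that of most genes. Of 24 genes of the polymerase III machinery 22 had at least 20 UMIs, 19 were at least 2-fold lower and 0 higher, with a median of -1.38. The polymerase III initiation factor gene Brf1 had 152 and 174 UMIs and a log2 ratio of -0.71 (-1.03 to -0.39), and the subunit gene Polr3d had 51 and 64 (-0.84, -1.40 to -0.29). The lowest were the subunit gene Polr3f with 5 and 42 UMIs (-3.58, -5.28 to -2.25) and Maf1, a repressor of polymerase III, with 15 and 57 (-2.44, -3.37 to -1.60). By STAR Polr3f had 97 and 223 UMIs (-2.09, -2.45 to -1.74) and Maf1 82 and 220 (-2.31, -2.70 to -1.94). The median protein-coding gene stood at -1.92 there. The list's median lay close to that of all genes.

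Of the 5S ribonucleoprotein genes, 8 were measured, 6 were lower and 0 higher, with a median log2 ratio of -1.59. Rpl11 had 14 and 8 UMIs (0.29, -1.06 to 1.75) and Rpl5 had 9 and 12 (-0.93, -2.35 to 0.44), both with intervals that include 0. By STAR, with more UMIs, both were lower and their intervals excluded 0. Rpl11 had 118 and 124 there (-0.96, -1.34 to -0.58) and Rpl5 100 and 119 (-1.14, -1.54 to -0.74). The median protein-coding gene stood at -1.92 by STAR. The lowest were Ssb, the La protein that binds polymerase III RNA ends, with 94 and 224 UMIs (-1.77, -2.13 to -1.41), and Heatr3, which brings Rpl5 into the nucleus, with 30 and 69 (-1.72, -2.38 to -1.08). The median of this list relative to the median protein-coding gene was -0.39.

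Of 13 polymerase I genes measured, 11 were lower and 0 higher, with a median of -1.42. Ubtf, the rDNA binding factor, had 163 and 191 UMIs (-0.74, -1.05 to -0.43) and Polr1a, the largest subunit, 86 and 120 (-0.99, -1.41 to -0.58). Ttf1, the terminator protein, had 127 and 306 (-1.78, -2.09 to -1.48), and Polr1h had 7 and 19 (-1.95, -3.45 to -0.64).

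Of 26 genes that process the spacer beside 5.8S, 21 were measured, 13 were lower and 0 higher, with a median of -1.40. The highest were the helicase gene Ddx27 with 214 and 168 UMIs (-0.16, -0.46 to 0.14) and Exosc8 with 21 and 22 (-0.58, -1.52 to 0.35). The lowest were Exosc7 with 9 and 42 UMIs (-2.74, -3.96 to -1.68) and Wdr12 with 28 and 92 (-2.23, -2.90 to -1.61). Exosc7 and Exosc8 both encode subunits of the RNA exosome, which trims 5.8S, and stood at opposite ends of the list by kallisto. By STAR Exosc8 had 108 and 158 UMIs (-1.44, -1.80 to -1.07) and Exosc7 54 and 152 (-2.38, -2.86 to -1.92). Exosc3, with too few kallisto UMIs to be measured, had 51 and 26 by STAR (0.08, -0.62 to 0.82) and stood above Exosc8.

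Other polymerase III transcripts were also higher in the in situ polyadenylated library. Of 8 such RNAs in the files 4 had at least 20 kallisto UMIs, and all 4 were at least 2-fold higher, where 1.46% of all genes were. Each passed the minimum through the in situ polyadenylated library, so the count is a description. Rpph1, the RNA of RNase P, had 850 and 1 UMIs (log2 ratio 9.22, 6.74 to 14.52), Rmrp, the RNA of RNase MRP, 347 and 1 (7.93, 5.44 to 13.23) and the vault RNA Vaultrc5 24 and 1 (4.07, 1.45 to 9.43). The Y RNA Rny3 had 36 and 0, at least 8.41-fold higher. By STAR, Rpph1 had 3443 and 12 UMIs (7.28, 6.47 to 8.23), Vaultrc5 337 and 7, and Rny3 362 and 2, whereas Rmrp was at 0 in both libraries. The symbol Rmrp stands on 2 gene identifiers in the data, and why the routes differ for it was not resolved. Its STAR 0 is therefore not shown to be a lack of RNase MRP RNA. Of 2 rDNA-derived genes measured by kallisto, AY036118 had 4419 and 110 UMIs (4.81, 4.54 to 5.10) and the other was Rn18s-rs5, described above.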

How the data were processed

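Single-nucleus RNA was measured in 1 in situ polyadenylated and 1 standard library of C2C12 nuclei. The authors trimmed reads with cutadapt 3.4, aligned them with STAR 2.7.10a to GRCm39 with GENCODE M28, or matched them to transcripts with kallisto 0.48.0 and bustools 0.41.0. Values in the deposited STAR matrices are raw UMI counts in whole numbers, and the choice of their barcodes is not stated in the methods or labels. Values in the deposited kallisto matrices are estimated counts, of which 1.1% and 2.65% of entries were not whole, and their sums were rounded for ratios.

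Nuclei were kept with over 750 kallisto UMIs and under 5% mitochondrial UMIs, and doublets were not called. Shares carry exact Clopper-Pearson intervals and ratios of shares the exact conditional Poisson interval, at 95%, for counting error only, since UMIs of 1 library are not replicates. A 0 was set to 3 UMIs per library, and no ratio was given where both libraries had at most 3. Values given as "at least" are relative to this floor and are no 95% limits. A gene was called 2-fold higher or lower from its ratio, without a test. Nuclei were thinned without replacement to 750 kallisto or 1500 STAR UMIs. Sequences, coordinates and overlaps came from GRCm39 with GENCODE M39, which matched all 343 listed copies by identifier, and genome matches of at least 50 bases from BLAST 2.17.0. Identity is from a global alignment to the reference (biopython 1.88).

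The members, gene lists and tests were chosen with earlier results of these data known. Named were the 6 copies of each class with most STAR UMIs, the copy with most kallisto UMIs in retained nuclei, Rn18s-rs5, mt-Rnr1, mt-Rnr2, the 2 highest and 2 lowest genes of each list and the 5 genes most alike in presence. Some sequences of 5S copies and 1 gene that this rule names are not reported here. Cluster members, n-R5s1, ENSMUSG00002075804, host genes, markers and Y-linked genes were named after their values were seen. The code was tested on simulated data with known answers. The alternatives tried were barcode filters, scalings (TMM factors of edgeR 4.0.16 included), denominators, copies summed, count minima and thinning. Shares in STAR barcodes that were not retained were added after the data were seen.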

Additional observations from a re-analysis of the deposited data

Results flagged for a closer look

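ENSMUSG00002075682, a listed 5S copy at chrX:158232273-158232381 in an intron of Map7d2 on the same strand, was outside the members because STAR gave it 0 UMIs in both libraries. kallisto counted 17 UMIs of it in 16 retained in situ polyadenylated nuclei and 108 over all in situ polyadenylated barcodes, against 0 in the standard library. It was taken up because it is a signal in counts that chose no member, and it was named after its values were seen.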

How the results depend on the processing

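No paired analysis was possible because neither group has a second library. The standard 5S values rest on 5 STAR and 0 kallisto UMIs in retained nuclei. The log2 ratios of 5S by STAR (8.97) and by kallisto (at least 5.50) and of 5.8S by STAR (7.50) stayed above 0 under all 12, 13 and 12 alternatives run. Relative to the median protein-coding gene they were 10.90, at least 6.69 and 9.42, and with TMM factors 10.61, at least 6.90 and 9.14; these rescale every gene alike. For 5.8S, nuclei with over 1500 UMIs gave 7.76, averaging over nuclei 7.36, and leaving out the leading copy, which is also the copy inside a gene on its strand, 7.15. For kallisto 5S, where standard UMIs were counted, the STAR barcodes gave 7.52, all barcodes 7.05 and a minimum of 500 UMIs 7.70, and over all listed copies the first of these fell to 5.72 and the second to 5.19. With the standard library at 0 the bounds were at least 4.21 at a minimum of 1500 UMIs, 4.99 without the 5% deepest nuclei, 5.95 on UMIs outside Rn18s-rs5 and mitochondrial genes, 5.28 averaged over nuclei and 4.84 without n-R5s28. Thinning lowered detection by its construction, from 87.2 to 42.8% and from 4.19 to 2.85% for 5S in the in situ polyadenylated library by STAR and kallisto, and from 29.2 to 10.5% for 5.8S in the standard library. The low-UMI log2 ratio of 5S turned from 0.68 to -0.70 for barcodes over 100 and up to 500 UMIs, and the cause was not tested. The STAR to kallisto ratio of 5S was 33.2 over all STAR barcodes instead of 24.0, cause not tested. Genes of the lists past 2-fold numbered 5 higher and 49 lower, 3 and 32 at a minimum of 50 UMIs (fewer genes measured), and 8 and 5 relative to the median protein-coding gene. The rho of 0.43 with identity was 0.57 with the longest shared run. kallisto 5.8S in retained nuclei gave no ratio to vary.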
